A study of Mus musculus with 24 samples.

Results

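Malat1, Neat1 and 6 host genes of small nucleolar RNAs (snoRNAs), namely Gas5, Snhg1, Snhg3, Snhg6, Snhg8 and Snhg12, are 8 long noncoding RNAs (lncRNAs) that stay in the nucleus or carry snoRNAs in their introns. They were picked by name from the 16572 gene names of the RNA-seq table, each was found in 1 row, and all 8 passed the filter on low values. The mouse oocytes came from ovaries at 7 days after birth. The labels give the strain as C57BL/6 Barb, while the methods of the study describe C57 Black6 mice crossed with an SV129 background. The cells of the digested ovaries were plated together, and the oocytes grew outside follicles, with theca-like cells in the culture at its start. They were collected as class IV, the largest size class, for which the labels give a diameter of 60 to 70 µm in both conditions, whereas the methods of the study give a smaller range for 20% O2. The IV 5% O2 oocytes were cultured for 9 days in 5% oxygen and the IV 20% O2 oocytes for 14 days in 20% oxygen, with the medium renewed at different intervals, so that oxygen, culture time, feeding and a possible difference in size cannot be told apart. The comparison asks how the transcripts of oocytes grown to the same class differed between low and atmospheric oxygen.

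Total RNA was depleted of ribosomal RNA, and 2 strand-specific libraries per condition were sequenced, so that RNAs without a poly(A) tail could be captured. The table gives 1 value per gene and condition in which both libraries are pooled, so no value below has an SD, a p-value or a replicate check. Levels are in RPM, which scales reads to the size of each column, with no correction for length. The IV 5% O2 column held 132185257 reads and the IV 20% O2 column 40875359 reads, so low values are less precise in 20% O2. Intervals are exact at 95%. They describe the reads of these libraries, not the spread between cultures, and cover counting error only, since no molecular identifiers were used. A log2 difference is IV 5% O2 minus IV 20% O2 on log2(RPM + 1), which understates the difference of low genes, and a gene counts as higher or lower by the 2-fold rule when it differs by at least 1 on that scale. Of 14704 genes whose mean reached 1 RPM, 18.7% were at least 2-fold higher and 9.22% at least 2-fold lower in IV 5% O2, and their median log2 difference was 0.26. Without regard to size, 9203 of the genes tested were higher in 5% O2 and 5501 lower. The genes in the table summed to 828571 RPM in 5% O2 and 726899 RPM in 20% O2. The part of this in the median was not tested. Higher genes made up 67.0% of the 2-fold differences as deposited, 45.6% after median-ratio scaling and 48.6% after quantile normalization, which put the median of all genes at -0.040 and 0.056, so differences are also given relative to that median. All 10 oocyte markers were present, with a summed level of 9571 RPM in 5% O2 and 13122 RPM in 20% O2. RNA from 12 of 18 theca and stroma markers was also listed, at a summed 52.7 RPM and 19.2 RPM.

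Malat1 is an abundant RNA of nuclear speckles, the domains that store splicing factors, and Neat1 is the scaffold of paraspeckles, nuclear bodies that hold RNA-binding proteins. The long forms of both are cut at their ends by RNase P, which releases a tRNA-like small RNA and leaves an end without a normal poly(A) tail. The snoRNA hosts are different in kind: the product is in the introns. Box C/D snoRNAs guide 2′-O-methylation and box H/ACA snoRNAs guide pseudouridylation, mostly of ribosomal RNA, while the spliced host is often exported, translated without a known product and removed by nonsense-mediated decay. Many hosts begin with a run of pyrimidines, a 5′ terminal oligopyrimidine tract, which links their RNA to growth and ribosome production.

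The sequences below show the kinds of RNA these genes hold. Coordinates are GRCm38, and each sequence is written 5′ to 3′ on its own strand. Snora73a, at chr4:132352775-132352979 on the minus strand, and Snora73b, at chr4:132352322-132352526 on the minus strand, lie inside Snhg3, and the capitals mark the ACA of a box H/ACA snoRNA, 3 bases before the annotated end. Snord47, at chr1:161038082-161038158 on the plus strand, lies inside Gas5, and its capitals mark the C box TGATGA and the D box CTGA of a box C/D snoRNA. The last 60 bases of Neat1, at chr19:5824708-5824767 on the minus strand, have their longest run of A in capitals, and the annotated small RNA Gm27702, at chr19:5824652-5824707 on the minus strand, starts at the next base.
Snora73a: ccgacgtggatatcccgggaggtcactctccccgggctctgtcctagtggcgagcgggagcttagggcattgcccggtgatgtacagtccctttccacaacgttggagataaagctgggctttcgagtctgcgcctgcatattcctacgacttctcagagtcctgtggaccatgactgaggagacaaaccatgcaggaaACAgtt
Snora73b: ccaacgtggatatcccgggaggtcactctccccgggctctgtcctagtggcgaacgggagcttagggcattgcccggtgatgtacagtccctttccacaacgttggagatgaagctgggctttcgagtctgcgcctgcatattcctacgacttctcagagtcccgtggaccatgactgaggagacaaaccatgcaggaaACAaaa
Snord47: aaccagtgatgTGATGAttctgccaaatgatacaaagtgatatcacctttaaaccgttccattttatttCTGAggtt
Neat1 3′ end: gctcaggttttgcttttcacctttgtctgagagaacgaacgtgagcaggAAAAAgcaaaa
Gm27702: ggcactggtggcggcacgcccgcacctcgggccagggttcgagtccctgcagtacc

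Snora73a and Snora73b had the same base at 198 of 205 positions, or 96.6%. The longest run of A in the last 60 bases of Neat1 was 5 bases. The ACA at that distance from the end was found in 301 of 1558 annotated snoRNA and scaRNA genes (19.3%), and the TGATGA within the first 16 bases together with CTGA in the last 12 in 299 (19.2%), both searched on the gene's own strand only. The TGATGA of Snord47, printed above, covers bases 12 to 17 and so is not among those counted. Inside the hosts, the C/D pair was found in 6 of 10 annotated entries in Gas5, 5 of 8 in Snhg1 and 1 of 5 in Snhg12, while the ACA was found in both entries of Snhg3, the 1 of Snhg8, 3 of Snhg12 and 1 of Gas5. Gas5 and Snhg1 therefore held mostly box C/D snoRNAs by this search, and Snhg3 and Snhg8 box H/ACA snoRNAs. The values below are those of the host rows and not of the snoRNAs.

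Of the 8 lncRNAs, 1 was at least 2-fold higher in IV 5% O2 (Neat1) and 2 were at least 2-fold lower (Gas5 and Snhg3), beside 18.7% and 9.22% of all genes tested. The other 5 differed by less than 2-fold, and 6 of 8 lay below the median of all genes. Their median log2 difference was -0.47, against 0.26 over all genes tested. That of the lncRNAs was -0.70 and -0.73 under the median-ratio and quantile scalings. Without genes whose annotated exons hold snoRNA bases it was 0.16, but only 3 lncRNAs were left. This alternative was chosen after the values were seen. The largest difference was that of Snhg3, at -3.11, and the highest was that of Neat1, at 1.87. In such bulk libraries fewer cells of a type and less RNA per cell cannot be told apart.

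**Figure D1:**
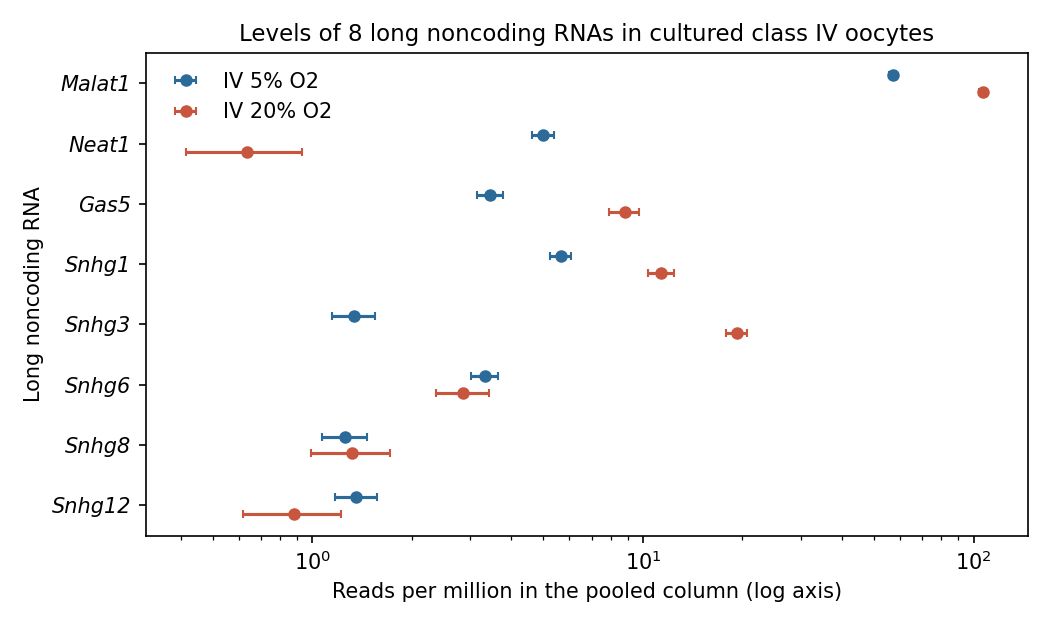
Level of each lncRNA in RPM (log axis) in the IV 5% O2 and IV 20% O2 columns, with bars for the exact 95% counting interval of the reads. Neat1 was at 4.99 RPM against 0.636 RPM and Snhg3 at 1.34 RPM against 19.2 RPM, whereas Snhg6 and Snhg8 had nearly the same level in both columns.

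Among the nuclear RNAs, Malat1 and Neat1 differed in opposite directions, although they are neighbours on chromosome 19 with 22035 bases between them. Malat1 (ENSMUSG00000092341.3, chr19:5795690-5802672, minus strand, 4 annotated transcripts) had 57.0 RPM in 5% O2, from 7528 reads, and 107 RPM in 20% O2, from 4371 reads. Its level was thus 1.88-fold higher in 20% O2 (interval 1.81 to 1.95). The log2 difference of -0.90 did not reach 2-fold as deposited, and relative to the median of all genes it was -1.16. With median-ratio scaling or quantile normalization of the columns it was -1.21 or -1.08, past 2-fold. Among the genes tested, 10.6% had a lower difference than Malat1.

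Neat1 (ENSMUSG00000092274.3, chr19:5824708-5845478, minus strand, 4 annotated transcripts) was the opposite case. It had 4.99 RPM in 5% O2, from 660 reads, and 0.636 RPM in 20% O2, from 26 reads. On reads alone it was 7.85-fold higher in 5% O2 (interval 5.31 to 12.1), and on log2(RPM + 1) the difference was 1.87, which is 1.61 above the median of all genes. A difference at least as high was found in 3.52% of the genes tested. The low level in 20% O2 makes the size depend on the pseudocount: the log2 difference was 0.83 with 5 RPM added and 2.79 with 0.1 RPM added.

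Markers of other ovarian cells were also listed. Over the whole table, 10437 of 16572 genes were higher in 5% O2. Of the 12 theca and stroma markers in the table, 10 were higher in 5% O2, and their summed level ranged from 52.7 RPM there to 19.2 RPM in 20% O2. Cyp11a1, the enzyme that starts steroid synthesis, had 16.4 RPM against 0.122 RPM, and the stromal genes Col1a2, Dcn and Vim were listed at 0 in 20% O2. The 2 lower ones were Ptch1 and Nr2f2, with log2 differences of -0.76 and -0.59. Ptch1 had the highest level of these 12 markers in 20% O2. Cyp17a1, Col1a1, Lum, Acta2, Tagln and Thy1 had no row. Of 7 granulosa markers in the table, 6 were higher in 5% O2, with a sum of 42.9 RPM against 29.8 RPM, and of the defining markers Foxl2, Amh and Amhr2 had no row, Fshr was at 0 in 5% O2 and Inha at 0 in 20% O2. Macrophage markers summed to 24.9 RPM and 22.6 RPM from 4 of 10, endothelial markers to 117 RPM and 284 RPM from 4 of 6 (3 higher in 5% O2 and 1, Vwf, lower, at 55.5 RPM against 248 RPM), and 1 of 6 erythroid markers was listed. The part of these cells in the Neat1 difference was not tested.

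Of the genes that touch the nuclear pair, Gm37376 is annotated on the opposite strand within Malat1, where it covers 453 bases. It had 4.07 RPM in 5% O2 and 2.28 RPM in 20% O2, a log2 difference of 0.63. Frmd8os starts 145 bases from the start of Neat1 on the other strand, and had 2.87 RPM and 5.06 RPM, a difference of -0.65. Neither passed 2-fold, and both differed in the direction opposite to the lncRNA beside them. The libraries kept strand, but whether strand was used in counting is not stated in the sources used here, so reads of overlapping genes on opposite strands may not be separated.

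Snhg3 (ENSMUSG00000085241.7, chr4:132348014-132353686, minus strand, 5 annotated transcripts), the host of the Snora73 pair shown above, had the largest difference. It had 1.34 RPM in 5% O2, from 177 reads, and 19.2 RPM in 20% O2, from 785 reads, which is 14.3-fold higher in 20% O2. The log2 ratio of reads was -3.84, with an interval from -4.09 to -3.61. Its log2 difference was -3.11, or -3.37 relative to the median of all genes, and 0.966% of the genes tested had a lower difference. It stayed past 2-fold, at -1.93, with 5 RPM added.

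The locus is crowded. Gm17300, annotated as a long intergenic RNA on the plus strand at chr4:132351772-132353382, lies entirely inside Snhg3, with 1611 bases of overlap and 705 bases of shared exon. It had 1.59 RPM in 5% O2, from 210 reads, and 55.8 RPM in 20% O2, from 2280 reads, which is 35.1-fold higher in 20% O2 and a log2 difference of -4.46. The intervals of the log2 ratios of Gm17300 (-5.34 to -4.93) and Snhg3 did not overlap, but they cover counting error only. Both rows may also share reads, since strand use in counting is not stated. Per kilobase of exon, its level was 1.04 RPKM in 5% O2 and 36.5 RPKM in 20% O2, against 1.36 and 19.5 RPKM for Snhg3.

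All 205 bases of Snora73b and 175 of the 205 bases of Snora73a lie in exons of Gm17300, on the other strand, while 0 bases of Snora73b and 159 bases of Snora73a lie in exons of Snhg3. Rcc1, a chromatin-bound exchange factor for the GTPase Ran, shares the strand of Snhg3, starts 81 bases from it and overlaps it over 5592 bases, with 135 bases of shared exon. It had 37.4 RPM and 26.7 RPM, a difference of 0.47 in the opposite direction to that of Snhg3. Of the 50-base windows in the exons of Snhg3, 1.30% occurred more than once in the genome, and of the 100-base windows 0%. The part of snoRNA reads and of reads from the other strand in the Snhg3 value was not tested.

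**Figure D2:**
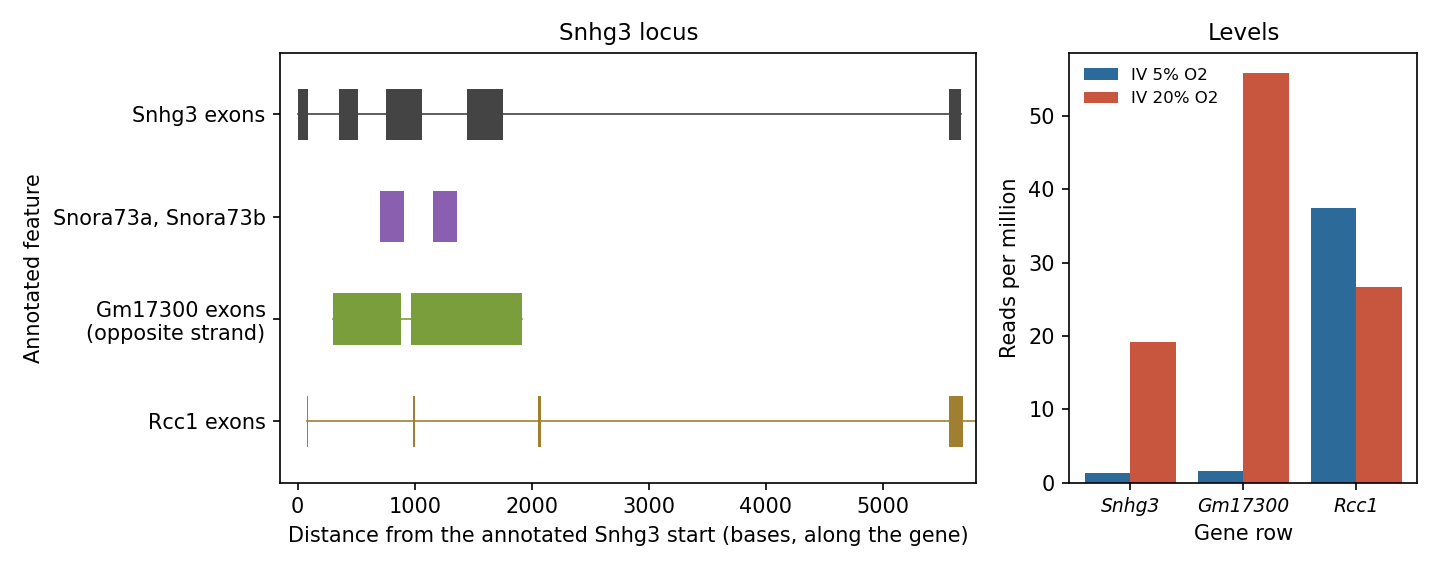
Annotated exons of Snhg3, Gm17300 and Rcc1 and the 2 snoRNAs, plotted by distance in bases from the start of Snhg3 (left), and bars of the level of the 3 genes in RPM in each column, without error bars (right). All 205 bases of Snora73b and 175 of Snora73a lie in exons of the antisense gene Gm17300, and 159 bases of Snora73a lie in an exon of Snhg3.

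Gas5 (ENSMUSG00000053332.13, chr1:161034422-161038539, plus strand, 25 annotated transcripts), known as a growth-arrest transcript and a decoy of the glucocorticoid receptor, was the other host past 2-fold. It had 3.46 RPM in 5% O2, from 457 reads, and 8.81 RPM in 20% O2, from 360 reads. It was 2.55-fold higher in 20% O2 (interval 2.21 to 2.93), with a log2 difference of -1.14, or -1.40 relative to the median of all genes, and 7.45% of genes tested were lower. With 5 RPM added the difference was -0.71, and after division by exonic length -0.80, both short of 2-fold. Its 9 snoRNA loci cover 669 bases of its annotated exons, or 17.8%.

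Snhg1 (ENSMUSG00000108414.1, chr19:8723475-8726443, plus strand, 18 annotated transcripts), which carries snoRNAs of the box C/D kind, had 5.65 RPM in 5% O2, from 747 reads, and 11.4 RPM in 20% O2, from 464 reads. The ratio of reads was 2.01 towards 20% O2 (interval 1.79 to 2.26), but on log2(RPM + 1) the difference was -0.89 and did not pass 2-fold. Relative to the median of all genes it was -1.15, and with median-ratio scaling -1.18. The 8 snoRNAs inside it cover 622 bases of its annotated exons, or 20.9%. Malat1, Gas5, Snhg1 and Snhg3 were the 4 lncRNAs past 2-fold lower under both other scalings. Over all genes, 2031 of 14634 were past 2-fold lower with median-ratio scaling and 1866 of 14705 with quantile normalization.

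Protein-coding genes start close to each of these hosts. Zbtb37, a zinc finger gene, starts 427 bases from Gas5 on the opposite strand, overlaps it over 428 bases without sharing exon bases, and had 68.6 RPM in 5% O2 and 55.9 RPM in 20% O2, a log2 difference of 0.29. Slc3a2, the heavy chain of an amino acid transporter, starts 106 bases from Snhg1 on the opposite strand and had 252 RPM and 168 RPM, a difference of 0.58. None of Zbtb37, Slc3a2 and Rcc1 passed 2-fold, and relative to the median of all genes their differences were 0.034, 0.32 and 0.21.

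The other 3 hosts differed by less than 2-fold. Snhg6 (ENSMUSG00000098234.7, chr1:9941959-9944118, minus strand), which holds Snord87, had 3.33 RPM in 5% O2 and 2.86 RPM in 20% O2, from 440 and 117 reads. Its log2 difference of 0.16 turned to -0.077 and -0.076 under the median-ratio and quantile scalings, and the interval of its log2 ratio ran from -0.080 to 0.52. Snhg8 (ENSMUSG00000104960.1, chr3:123507552-123508404, minus strand), which holds Snora24, had 1.26 RPM and 1.32 RPM, from 166 and 54 reads, with an interval from -0.52 to 0.40. Both intervals held 0, so no difference was detectable for Snhg6 or Snhg8 at this depth.

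Snhg12 (ENSMUSG00000086290.9, chr4:132308623-132311024, plus strand), which lies 36989 bases from Snhg3, had 1.36 RPM in 5% O2 and 0.881 RPM in 20% O2, from 180 and 36 reads. Its log2 difference was 0.33, with quantile normalization -0.054, and the log2 ratio of reads was 0.63 with an interval from 0.11 to 1.19. It holds Snora16a, Snora44, Snora61 and Snord99, which cover 470 bases of its annotated exons, or 19.6%. In Snhg8, which had a log2 difference of -0.041, Snora24 covers 130 exonic bases, or 15.2%, and in Snhg3 the share is 16.1%. Mcmdc2, a meiotic recombination gene that overlaps the end of Snhg6 over 127 bases on the opposite strand, had 1.77 RPM in 5% O2 and 0.636 RPM in 20% O2, a difference of 0.76.

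**Figure D3:**
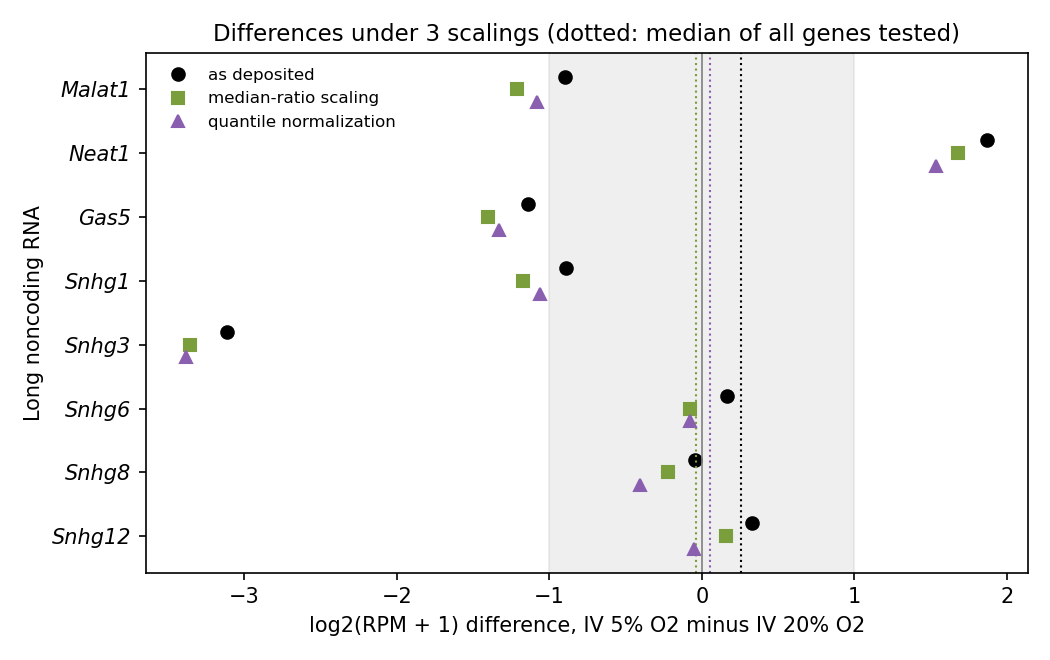
Log2(RPM + 1) difference (IV 5% O2 minus IV 20% O2) of the 8 lncRNAs as deposited (circles), after median-ratio scaling (squares) and after quantile normalization (triangles), with dotted lines at the median of all genes under each and a grey band for differences under 2-fold. As deposited Neat1 lies above the band at 1.87 and Gas5 and Snhg3 below it at -1.14 and -3.11, while Malat1 and Snhg1 leave the band under both other scalings and Snhg6 and Snhg12 lie on either side of 0.

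Per kilobase of merged annotated exon (RPKM), the order of the levels changed between the conditions. In 5% O2 Malat1 was highest at 8.16 RPKM, followed by Snhg6 at 2.90, Snhg1 at 1.90, Snhg8 at 1.47, Snhg3 at 1.36, Gas5 at 0.919, Snhg12 at 0.567 and Neat1 at 0.240 RPKM. In 20% O2 Snhg3 was highest at 19.5 RPKM, followed by Malat1 at 15.3, Snhg1 at 3.82, Snhg6 at 2.50, Gas5 at 2.34, Snhg8 at 1.55, Snhg12 at 0.367 and Neat1 at 0.0306 RPKM. Of the 986 exonic bases of Snhg3, 705 lie opposite exons of Gm17300. The rank of Snhg3 may thus include reads of that gene or of the snoRNAs, which was not tested. Counting intervals of neighbours in the order overlapped for Snhg8 and Snhg3 in 5% O2 (1.26 to 1.71 and 1.17 to 1.57) and for Snhg6 and Gas5 in 20% O2 (2.07 to 2.99 and 2.11 to 2.60), and for no other neighbours. Per length Malat1 was 33.9 times Neat1 in 5% O2 and 500.1 times in 20% O2. Lengths merge the exons of all annotated transcripts, so the level of Neat1 is understated if its reads come from a shorter form. Neat1 is the longest, with 20771 exonic bases, and Snhg8 and Snhg3 are the shortest, with 853 and 986, the former with a difference of -0.041 and the latter of -3.11.

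Start windows are shown for the hosts on either side of the 2-fold line, because the first bases define a 5′ terminal oligopyrimidine tract. RefSeq promoters (GRCm38.p6) matched 6 of the 8 lncRNAs and gave 7 starts, and each line holds 20 bases before to 30 after the annotated start, with the pyrimidine run that holds the start in capitals. The windows are chr1:161034581-161034631 and chr1:161035146-161035196 (plus strand) for the starts of Gas5, chr19:8723467-8723517 (plus) for Snhg1, chr4:132353656-132353706 (minus) for Snhg3, chr3:123508306-123508356 (minus) for Snhg8, chr4:132308658-132308708 (plus) for Snhg12 and chr19:5802642-5802692 (minus) for Malat1.
Gas5 start 1: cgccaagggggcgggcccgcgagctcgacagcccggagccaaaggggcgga
Gas5 start 2: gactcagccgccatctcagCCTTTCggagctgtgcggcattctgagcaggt
Snhg1: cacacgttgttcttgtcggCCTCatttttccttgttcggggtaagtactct
Snhg3: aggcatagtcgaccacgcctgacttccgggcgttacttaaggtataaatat
Snhg8: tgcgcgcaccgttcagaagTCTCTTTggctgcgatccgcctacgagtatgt
Snhg12: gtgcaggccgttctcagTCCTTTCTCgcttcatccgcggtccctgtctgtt
Malat1: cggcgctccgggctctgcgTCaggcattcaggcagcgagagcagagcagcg

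The run was 9 bases in Snhg12, 7 in Snhg8, 6 at the second start of Gas5, 4 in Snhg1, 2 in Malat1 and 0 at the first start of Gas5 and in Snhg3, while 10.1% of 32851 promoters had a run of at least 5. The part of these runs in the differences was not tested. The hypoxia response core was searched as ACGTG and GCGTG on both strands of the whole promoter, 250 bases before to 50 after the start, where CACGTG counts on each strand. ACGTG was found 1 time in Malat1 and 1 time in Snhg1, and GCGTG 2 times each in Snhg1, Snhg3, Snhg8 and the second start of Gas5, with no match in Snhg12 or the first start of Gas5. Either was present in 43.8% of all promoters. Promoters of Neat1 and Snhg6 were not analysed here.

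Other snoRNA-host lncRNAs, from a list of 15, were in the table for 8 and tested for 7. Of these 1 was at least 2-fold higher and 2 lower in 5% O2, and their median log2 difference was -0.59 against 0.26 over all genes. That median was -0.27 with 5 RPM added, -0.29 per exonic length and -0.90 with no pseudocount. Snhg20 had 0.151 RPM in 5% O2 and 3.87 RPM in 20% O2 (-2.08), Snhg14, the host of the imprinted snoRNA clusters, 7.79 RPM and 10.4 RPM (-0.37), and Snhg5 4.29 RPM and 4.48 RPM (-0.050). Snhg4, which the annotation used here types as protein-coding, had 158 RPM and 73.5 RPM (1.10).

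Protein-coding snoRNA hosts, most of them ribosomal protein and translation factor genes, had 15 of 37 at least 2-fold lower in 5% O2 and 1 higher, beside 9.22% and 18.7% of all genes. Their median was -0.51, and -0.83 and -0.70 under the median-ratio and quantile scalings. Rpl37, a ribosomal protein gene, had 9.03 RPM against 113 RPM (-3.51), while Ncl, which encodes nucleolin, had 205 RPM against 98.6 RPM (1.05). The elongation factor Eef2 had 616 RPM and 350 RPM (0.81), and the helicase Eif4a1 469 RPM and 486 RPM (-0.052). Without hosts whose annotated exons hold snoRNA bases, an alternative chosen after the values were seen, the median of this list was 0.23, but only 10 of its 37 genes were left, with 2 of its 21 ribosomal protein genes.

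By annotation, 263 further genes in the table hold a snoRNA in an intron on their own strand, and 252 were tested. Of these 33 were at least 2-fold higher (13.1%) and 42 lower (16.7%), with a median of -0.039. The 232 protein-coding ones had 31 higher (13.4%) and 38 lower (16.4%), with a median of -0.020. Among all 252, where annotated exons of other transcripts also cover snoRNA bases, 4 of 67 were higher (5.97%) and 19 lower (28.4%), with a median of -0.23. Where none do, 29 of 185 were higher (15.7%) and 23 lower (12.4%), with a median of 0.071. This split was made after the values were seen, and it carries no test. Of the 6 hosts among the 8 lncRNAs, only Snhg6 has no snoRNA base in an annotated exon. The part of snoRNA reads in these values was not tested.

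**Figure D4:**
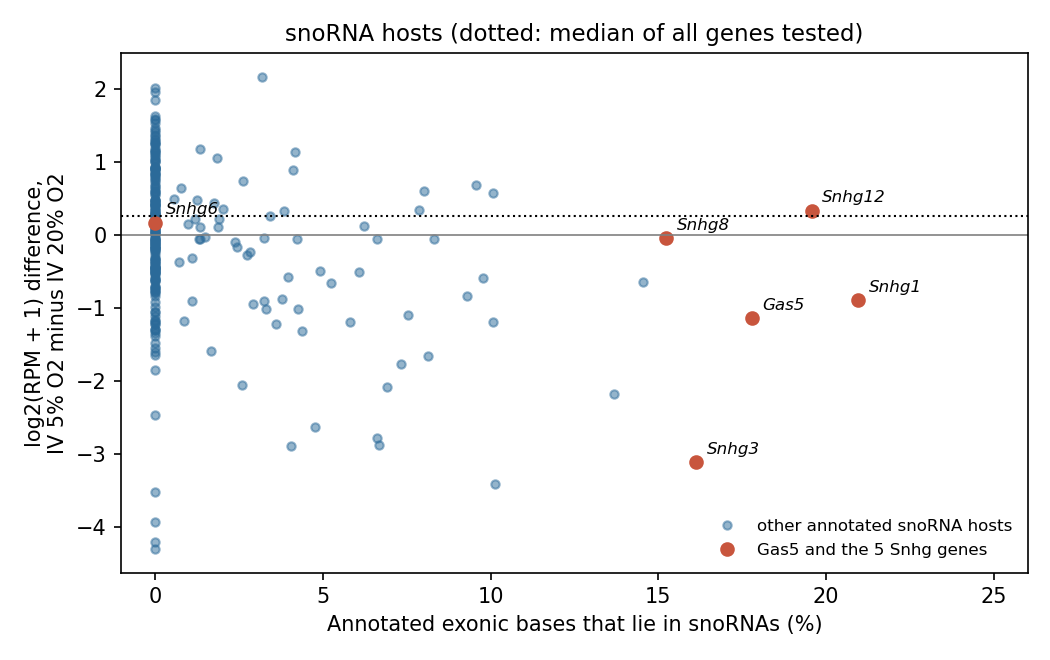
Log2 difference of annotated snoRNA hosts (vertical axis) against the share of their annotated exonic bases that lie in snoRNAs, in percent, with the 6 host lncRNAs named and a dotted line at the median of all genes tested. Hosts with at least 10% of exonic bases in snoRNAs spread from Snhg3 at -3.11 to Snhg12 at 0.33 among the named lncRNAs.

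Of 18 snoRNP proteins and assembly factors, 3 were at least 2-fold higher and 1 lower, with a median of 0.38 that was 0.098 and 0.21 under the median-ratio and quantile scalings. The assembly ATPase Ruvbl2 had 159 RPM in 5% O2 and 63.8 RPM in 20% O2 (1.31), the H/ACA core protein Nop10 10.3 RPM and 23.7 RPM (-1.13), the chaperone Nolc1 145 RPM and 97.5 RPM (0.56), and the C/D core protein Nop56, itself a snoRNA host, 115 RPM and 75.2 RPM (0.60). Of 15 nonsense-mediated decay genes 3 were higher and 1 lower by 2-fold, with a median of 0.37 that was 0.063 and 0.18 under these scalings. Upf3b had 21.9 RPM and 9.35 RPM (1.15), the helicase Upf1 339 RPM and 220 RPM (0.62), and the kinase Smg1 164 RPM and 193 RPM (-0.23).

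Of 15 paraspeckle proteins, 0 were at least 2-fold higher and 3 lower, with a median of 0.12 that turned to -0.20 and -0.076 under the median-ratio and quantile scalings. The core protein Nono had 358 RPM in 5% O2 and 207 RPM in 20% O2 (0.79), Hnrnpk, which acts on the 3′ end of the short form of Neat1, 323 RPM and 204 RPM (0.66), and Rbm7 173 RPM and 107 RPM (0.69). Neat1 was higher in 5% O2 by 2-fold, though not with 5 RPM added. No transcript of this list was, beside 18.7% of all genes tested. Of 15 nuclear speckle proteins 3 were higher and 2 lower, with a median of -0.036 that was -0.34 and -0.19 under these scalings. The speckle scaffold Srrm2 had 72.5 RPM and 326 RPM (-2.15), the other scaffold Son 254 RPM and 352 RPM (-0.47), and the kinases Clk1 258 RPM and 75.1 RPM (1.77) and Dyrk1a 302 RPM and 282 RPM (0.10).

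Genes for the end processing of MALAT1 and NEAT1 gave 2 higher and 1 lower of 15, with a median of 0.12 that turned to -0.19 and -0.051 under these scalings and to -0.11 per exonic length. The lower gene was Rpph1, the RNA of RNase P, with 222 RPM in 5% O2 and 777 RPM in 20% O2 (-1.80). Its protein partners Pop4, with 71.9 RPM and 31.8 RPM (1.15), and Rpp25, with 2.19 RPM and 0.245 RPM (1.36), were the higher ones, and Elac2, the tRNA 3′ endonuclease, had 167 RPM and 87.3 RPM (0.93).

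Among 14 other named lncRNAs tested of 21 listed, 5 were higher and 3 lower by 2-fold, with a median of 0.073 that was negative with either other scaling. Rmrp, the RNA of RNase MRP, had 18.6 RPM in 5% O2 and 442 RPM in 20% O2 (-4.50), and H19, an imprinted RNA, 4.62 RPM and 0.0245 RPM (2.46), the latter from 1 read. Tug1 had 39.4 RPM and 72.3 RPM (-0.86), and Oip5os1 20.7 RPM and 14.9 RPM (0.44). The differences of the 8 lncRNAs all lay inside the range of this list, from -4.50 to 2.46.

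**Figure D5:**
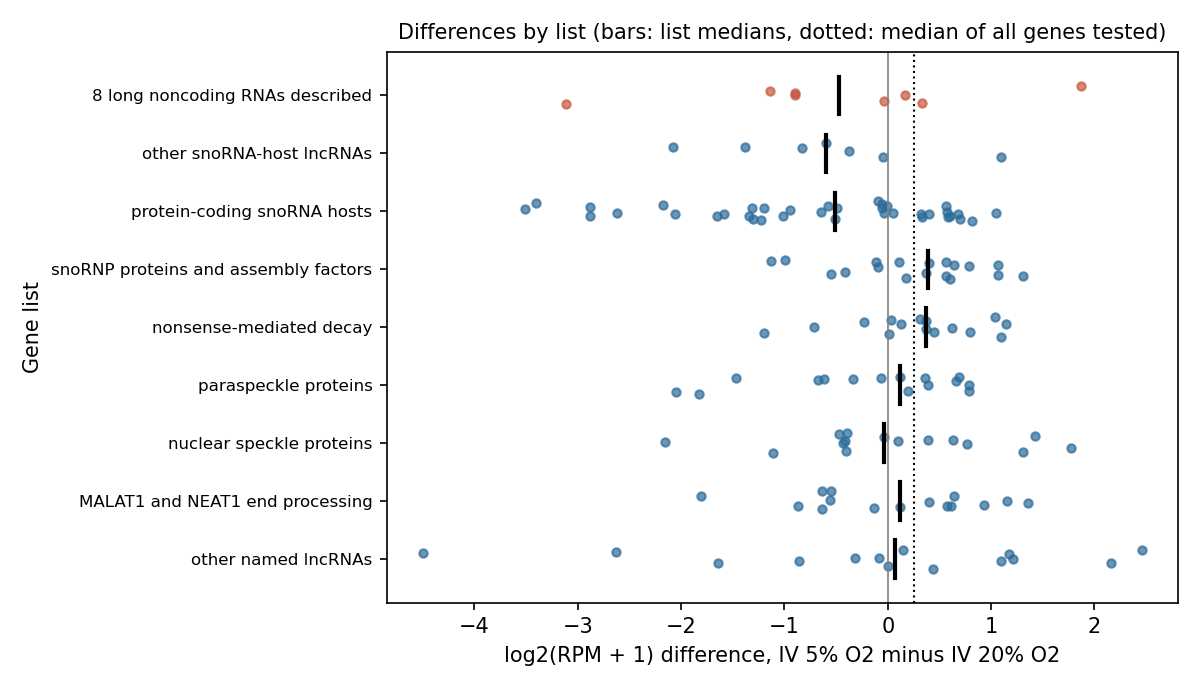
Log2 difference (IV 5% O2 minus IV 20% O2) of each tested gene by list, with the median of each list and the median of all genes tested at 0.26. The medians of the 8 lncRNAs (-0.47), the other snoRNA-host lncRNAs (-0.59) and the protein-coding snoRNA hosts (-0.51) lie below those of the protein lists, from -0.036 to 0.38. The protein-coding hosts drawn are a chosen list. All 232 tested protein-coding hosts of the annotation, not drawn, had a median of -0.020.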

How the data were processed

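RNA-seq of class IV oocytes from the IV 5% O2 and IV 20% O2 cultures, 2 libraries each, was used, and the bisulphite libraries were not used here. The authors aligned reads to mm10 with TopHat (TopHat2 2.0.9 in the submitters' processing notes), quantified exons in SeqMonk, and deposited log2 values in 1 column per condition. How libraries were combined, and whether strand was used in counting, is not stated in the sources used here. The table has 16591 rows, and 1 value column matched no mapped sample and was not used. The values are named RPKM, but with the log2 undone 99.98% in each column were within 0.1 of a whole multiple of 1 read (0.00757 and 0.0245 RPM), so they were read as RPM. Rows listed at 0.9 of a read were set to 0. A count of 0 allows 3 reads, 0.0227 RPM in 5% O2 and 0.0734 RPM in 20% O2. Lengths, overlaps and snoRNAs came from the GENCODE annotation of GRCm38, matching 16401 rows by coordinates and 158 by name, with 32 unmatched, and the exons used by the authors may differ. Promoters came from RefSeq.

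No count test could be run on pooled columns. Differences of log2(RPM + 1) were taken for genes whose mean reached 1 RPM, with exact 95% Clopper-Pearson intervals for ratios of reads and exact Poisson intervals for levels. The members and lists were chosen with earlier results of these data known. Named genes were the 8 lncRNAs, all genes that overlap them or start within 1000 bases, and, of each list, the highest and lowest difference and 2 more with the highest mean. Some genes that this rule names are not reported here. Alternatives were pseudocounts of 0.1 and 5 RPM, division by exonic length, a filter at 5 RPM or none, RPM added up over repeated names, and median-ratio or quantile scaling of the columns. No pseudocount, and leaving out genes with snoRNA bases in annotated exons, were added after the data were seen. The calculations were tested on simulated data. The work was done in Python 3.11.15 with scipy 1.17.1, pandas 2.3.3, numpy 2.4.6, matplotlib 3.10.9 and numba 0.67.0.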

Additional observations from a re-analysis of the deposited data

How the results depend on the processing

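No paired analysis was possible because the pooled columns carry no replicate numbers, and for the same reason neither leaving out each library nor a replicate block was run. Neat1, Gas5, Snhg3, Malat1 and Snhg1 kept their direction under every alternative that could be run for them. The count of lncRNAs at least 2-fold higher, 1 as reported, was 0 with 5 RPM added, where Neat1 was at 0.83, and 0 with the 5 RPM filter and after division by length, which both remove Neat1. The count lower, 2 as reported, was 1 with 5 RPM added and after division by length, 3 with no pseudocount, 4 under the median-ratio or quantile scaling, and 0 without genes whose annotated exons hold snoRNA bases, an alternative chosen after the data were seen that leaves 3 lncRNAs. Their median of -0.47 was -1.02 with the 5 RPM filter (4 lncRNAs), -0.77 after division by length (6 lncRNAs) and 0.16 without those genes. Over all genes, 2753 were higher as reported, 1202 with 5 RPM added, 1691 with the 5 RPM filter, 1700 and 1764 under the median-ratio and quantile scalings and 1602 per exonic length, and 1356 were lower, 706 with 5 RPM added, 897 after division by length, and 2031 and 1866 under the scalings. Of the 2-fold differences 67.0% were higher in 5% O2 as reported, 45.6% and 48.6% under these scalings, and the median of all genes was -0.040 under the former. Snhg6 turned to -0.077 and -0.076 with the 2 scalings and Snhg12 to -0.054 with quantile normalization. The median of the paraspeckle list turned to -0.20 and -0.076 with the scalings. That of end processing turned to -0.0038 with the 5 RPM filter, -0.19 and -0.051 with the scalings and -0.11 by length. That of other named lncRNAs turned to -0.0022 with the 5 RPM filter and without genes with exonic snoRNA bases, -0.18 and -0.14 with the scalings and -0.74 by length. That of protein-coding hosts turned to 0.23 without genes with exonic snoRNA bases, which leaves 10 of 37. The cause of these shifts was not tested, apart from the fewer genes left by the filters. Depth limits Neat1 in 20% O2, with 26 reads, and Snhg12, with 36, most.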

Other observations

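Annotated lncRNA genes as a class were 2086 of the genes in the table, of which 1506 were tested. Of these 366 (24.3%) were at least 2-fold higher in IV 5% O2 and 168 (11.2%) lower, beside 18.7% and 9.22% of all genes, with a median log2 difference of 0.27. Their median was thus close to that of all genes, at 0.26, whereas that of the 8 lncRNAs was -0.47.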
